A study of Rattus norvegicus with 6 samples.

Results

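The genes of glutathione and antioxidant defence were compared between the brains of SPORTS rats and wild type rats. The set is a fixed list of 36 genes, taken by gene name, out of 15168 genes with a RefSeq symbol on the array. It was chosen with earlier results of these data known. Every probe whose RefSeq transcript accession belongs to one of these genes was kept, which gave 38 probes, with 2 probes each for Gpx4 and Txnrd1. Probes identified by Ensembl transcripts were not matched to genes here, so further probes of the members may be on the array. Of these, 37 probes for 35 genes were bright enough to be tested, and Gclm was the gene that was not.

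Rats of the SPORTS genotype (n = 3) were compared with wild type rats (n = 3). SPORTS rats are hyperactive mutants, and the labels do not name the mutated gene. All 6 rats were males of Wistar background aged 15 weeks, and all were sedentary, so that none had exercised. RNA came from brain with no region given, and each rat contributed 1 single-colour oligonucleotide array.

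Cells make reactive oxygen as a by-product of respiration, and the antioxidant system removes it in steps. Superoxide dismutases turn superoxide into hydrogen peroxide, which catalase, glutathione peroxidases and peroxiredoxins then reduce. The peroxidases draw their electrons from glutathione or from thioredoxin, and these are kept reduced by glutathione reductase and thioredoxin reductases at the cost of NADPH. Glutathione transferases attach glutathione to reactive compounds such as products of lipid oxidation. Many of these genes are targets of NRF2, a transcription factor that KEAP1 marks for degradation until oxidants modify KEAP1. In brain, glutathione-related enzymes are known to be prominent in astrocytes.

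Signals are given on the log2 scale relative to the 75th percentile of their own array, and each difference is the SPORTS mean less the wild type mean. An array had 20325 to 23261 of its 30367 probes above background and no saturated spots. All 6 arrays lay on 1 slide, with wild type replicates 1 and 2 in row 1 and the other 4 arrays in row 2. SPORTS replicate 1 stood apart on cerebellar markers, whose summed linear signal was 13.3 there and between 8.23 and 9.70 on the other 5 arrays. It also stood apart on the list of choroid plexus and ependyma markers, with a summed signal of 68.2 against 128 to 145 on the other 5 arrays. That sum is mostly Ttr, with a log2 signal of 6.06 there and 6.98 to 7.16 on the other 5 arrays. Foxj1, Drc12, Enkur and Tmem212 of the same list did not set this array apart. All 9 tested pan-neuronal markers were above background, with summed signals of 68.3 to 69.2 in SPORTS and 66.9 to 70.1 in wild type. By the test described below, 2 of them were higher in SPORTS (Nefl and Nefm) and 2 lower (Syt1 and Tubb3). None of these passed with the slide row in the model. In bulk tissue, fewer cells of a type and less RNA per cell cannot be told apart.

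Of the 37 tested member probes, 8 were higher and 6 lower in SPORTS (limma's moderated test, adjusted p under 0.05 over 20659 tested probes), which is 37.8%. Over all tested probes, 21.1% were called, 11.1% higher and 10.1% lower. By gene, 14 of 35 tested members had a call, 40.0%, against 24.3% of 11033 genes each represented by its brightest probe. The median difference of the member probes was 0.03, against -0.002 over all tested probes. The median absolute difference was 0.13 over the tested member probes, against 0.11 over all tested probes, and 0.27 over the called members, against 0.33 over all called probes. Over 1.5-fold differences were seen for 3 member probes, 8.11%, against 5.81% of all tested probes. Groups did not overlap for 22 of the 37 probes, 59.5%, against 41.9% of all tested probes. Without SPORTS replicate 1, 5 member probes were higher and 2 lower, 18.9%, against 13.7% of all tested probes. Leaving out any 1 array left 5 to 6 higher and 1 to 3 lower. Those are 16.2% to 24.3% of member probes, against 12.3% to 15.5% of all tested probes. When arrays were scaled to their median, 7 member probes were higher and 7 lower, 37.8%, against 19.7% of all tested probes. With that scaling, the share of all calls that were higher was 41.6%, against 52.3% with the 75th percentile.

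The calls are given here by enzyme class. Glutathione transferases and 1 glutathione peroxidase made up 5 of the 8 rises. The others were Nfe2l2, Txnrd2 and 1 of the 2 probes of Txnrd1. The 6 falls lay in Gclc and Gsr of glutathione synthesis and reduction, in 2 peroxiredoxins, in mitochondrial thioredoxin and in Keap1. No probe of the superoxide dismutases, catalase, the heme oxygenases or Nqo1 passed. The classes held 2 to 7 tested probes each and were not tested against one another.

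**Figure D1:**
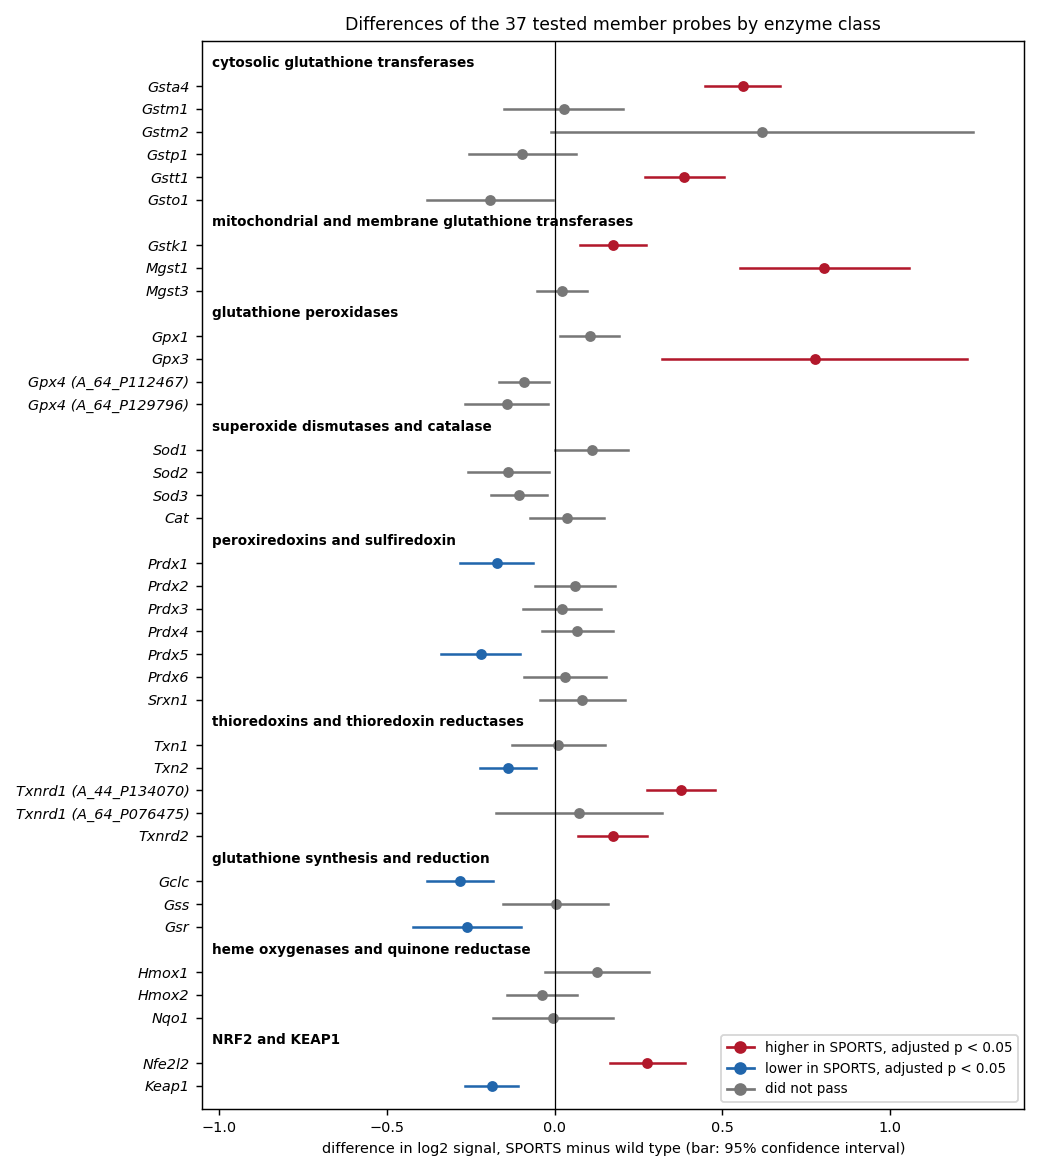
Difference in log2 signal (SPORTS minus wild type, horizontal axis) of the 37 tested member probes, grouped by enzyme class down the page. Points are the fitted differences and bars their 95% confidence intervals, with red for the 8 probes higher and blue for the 6 lower in SPORTS at adjusted p under 0.05; Mgst1 and Gpx3 lie farthest to the right and Gclc farthest to the left.

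The genes of the regulator pair moved in opposite directions. Nfe2l2, which encodes NRF2, had signals of -0.26, -0.38 and -0.34 in SPORTS, against -0.63, -0.62 and -0.56 in wild type. All 3 SPORTS arrays lay above all 3 wild type arrays. Nfe2l2 rose by 0.28 ± 0.05 (SE), a 1.21-fold difference (limma adjusted p = 0.0111). Keap1, the adaptor through which NRF2 is ubiquitinated, had signals of -0.43, -0.47 and -0.44 in SPORTS, against -0.25, -0.27 and -0.26 in wild type. The groups again did not overlap, and Keap1 fell by 0.19 ± 0.03 (adjusted p = 0.0123). With the slide row in the model the differences were 0.24 for Nfe2l2 and -0.18 for Keap1, and neither call was kept (adjusted p = 0.107 and 0.0957). Keap1 also missed the threshold without SPORTS replicate 2 (adjusted p = 0.0542). Over 17 alternative settings the adjusted p ran from 0.00217 to 0.148 for Nfe2l2 and from 0.00477 to 0.130 for Keap1.

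NRF2 binds with small MAF proteins to antioxidant response elements, whose core is often written TGACNNNGC, with TGAGNNNGC as a variant. Both strings were searched on both strands in RefSeq promoter windows of build GRCr8, from 250 bases before to 50 bases after a start. Windows were found for 31 of the 36 members, 35 windows in all. TGACNNNGC was present in 9 member windows, 25.7%, against 12.1% of all 33469 windows. TGAGNNNGC was present in 4 member windows, 11.4%, against 17.2% of all windows. A match describes the letters only. Either string was present in 13 member windows, 37.1%, against 27.1% of all windows. It was found in 5 of 12 members with a call and a window, and in 13 of all 31 members with a window. Stretches of 100 bases, from 150 to 51 before the start, are shown for 4 members that have a match inside that stretch, picked because their probes behaved differently: Txnrd1 and Mgst1 were called higher, Prdx1 was called lower and Gstp1 did not pass. Capitals mark the match, which in the first 3 is on the opposite strand and so reads as its reverse complement.
Txnrd1 (chr7:22755955-22756054, minus strand): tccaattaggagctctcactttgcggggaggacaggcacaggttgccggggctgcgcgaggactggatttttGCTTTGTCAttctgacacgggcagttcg
Mgst1 (chr4:172760780-172760879, plus strand): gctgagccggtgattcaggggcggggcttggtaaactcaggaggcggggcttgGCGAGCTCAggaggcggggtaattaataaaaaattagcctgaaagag
Prdx1 (chr5:135383756-135383855, plus strand): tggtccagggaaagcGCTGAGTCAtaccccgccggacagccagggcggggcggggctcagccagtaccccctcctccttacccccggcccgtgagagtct
Gstp1 (chr1:210769756-210769855, minus strand): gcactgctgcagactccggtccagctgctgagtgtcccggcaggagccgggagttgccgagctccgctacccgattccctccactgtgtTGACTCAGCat
The Txnrd1 stretch belongs to 1 of the 2 starts that RefSeq lists for the gene. The match of Mgst1 is to TGAGNNNGC and those of the other 3 genes are to TGACNNNGC.

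Of the 9 glutathione transferase probes, 4 were higher and none lower, 2 of 6 among the cytosolic and 2 of 3 among the mitochondrial and membrane enzymes, where 11.1% of all tested probes were higher. Gsta4, an alpha-class enzyme that conjugates the lipid peroxidation product 4-hydroxynonenal, had signals of 1.99, 2.03 and 2.04 in SPORTS and 1.384, 1.494 and 1.502 in wild type. The SPORTS arrays lay close together and far above the wild type arrays. Gsta4 rose by 0.56 ± 0.05 (SE), 1.47-fold (limma adjusted p = 0.00122), and it was the one called member whose call was kept in all 17 alternative settings. Its difference ran from 0.52 to 0.58 over them, and its adjusted p from 2.6e-05 to 0.0272.

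Gstt1, a theta-class enzyme active on small halogenated compounds, had signals of -3.02, -3.04 and -2.98 in SPORTS and -3.42, -3.46 and -3.32 in wild type. The groups did not overlap, and Gstt1 rose by 0.39 ± 0.05, 1.31-fold (adjusted p = 0.00435). Blocking on the slide row kept the call, with a difference of 0.31 (adjusted p = 0.0394). The other cytosolic members did not pass. Gstm2, a mu-class enzyme, had signals of -2.40, -3.26 and -3.28 in SPORTS and -3.56, -3.46 and -3.78 in wild type. Here SPORTS replicate 1 was well above the other 5 arrays, and the difference was 0.62 ± 0.25 (adjusted p = 0.149). Without that array the difference was 0.33 (adjusted p = 0.111). This is the array that stood apart on cerebellar and choroid plexus markers, and their part in the Gstm2 value was not tested.

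Gstm1, the neighbour of Gstm2 in the RefSeq gene order, had overlapping groups and a difference of 0.03, with a 95% confidence interval from -0.15 to 0.20. Gstp1, the pi-class enzyme known in brain from oligodendrocytes, differed by -0.10 (interval -0.26 to 0.06). Gsto1, an omega-class enzyme with thioltransferase activity, differed by -0.19 (interval -0.38 to -0.005, adjusted p = 0.136). Enzymes of 1 class are close in sequence. Probe sequences were not used here, so whether the probes of Gstm1 and Gstm2 or of other close relatives tell them apart was not tested.

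Mgst1, a membrane-bound transferase of the endoplasmic reticulum and outer mitochondrial membrane that also reduces lipid peroxides, had the largest fitted difference among the member probes. Its signals were -1.49, -1.65 and -1.46 in SPORTS, against -2.54, -2.20 and -2.27 in wild type. Every SPORTS array lay above every wild type array, and the wild type arrays were spread more widely (SD 0.18) than the SPORTS arrays (SD 0.10). Mgst1 rose by 0.80 ± 0.10 (SE), 1.75-fold (limma adjusted p = 0.00476). Blocking on the slide row gave 0.74 ± 0.15, which missed the threshold (adjusted p = 0.0579, the highest of 17 alternatives, the lowest being 0.000494). Gstk1, the kappa-class enzyme of mitochondria and peroxisomes, had signals of -0.10, -0.15 and -0.10 in SPORTS and -0.33, -0.30 and -0.24 in wild type. It rose by 0.17 ± 0.04 (adjusted p = 0.0313), a call that was lost with the block (0.13, adjusted p = 0.230) and without any 1 array except wild type replicate 3 (adjusted p up to 0.101). Mgst3 differed by 0.02, with an interval from -0.05 to 0.10.

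**Figure D2:**
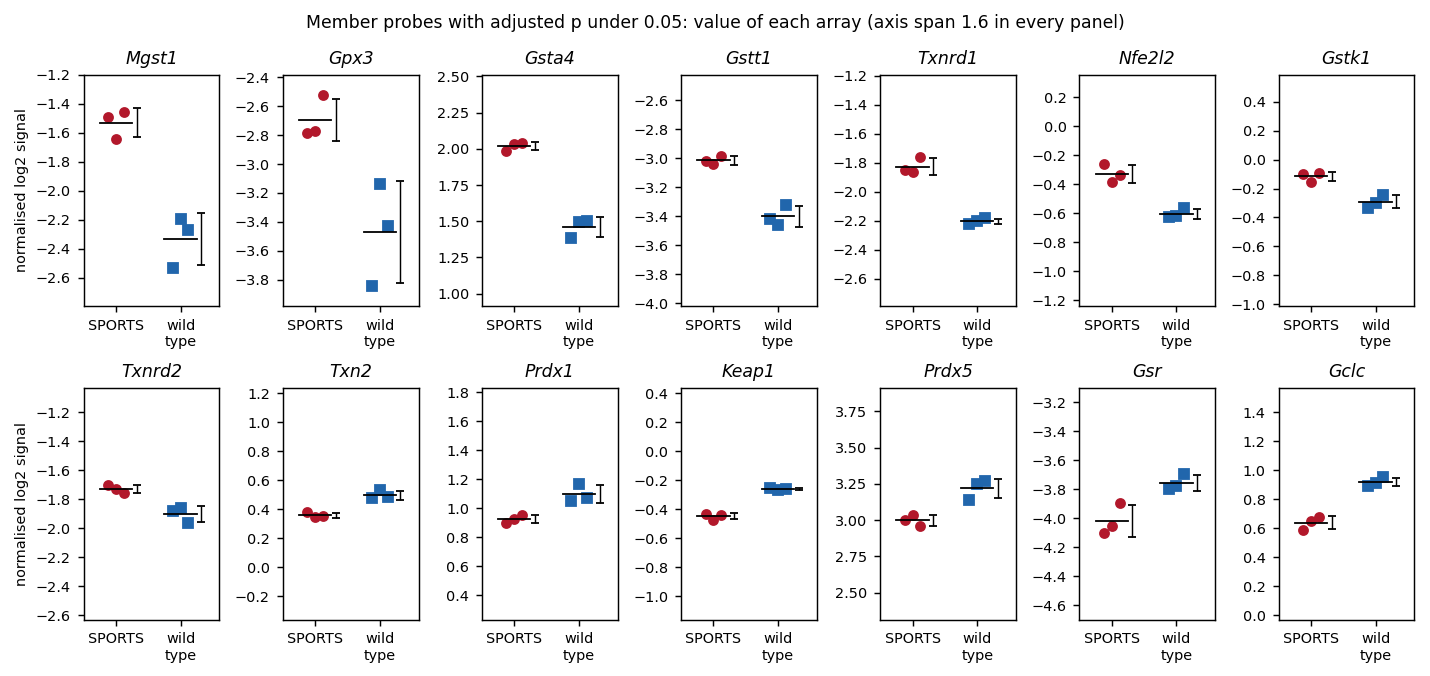
Normalised log2 signal (vertical axis, spanning 1.6 in every panel) of each array for the 14 called member probes, with SPORTS as circles on the left and wild type as squares on the right of each panel. Horizontal lines are group means and bars the SD over 3 arrays; in all 14 panels the 3 SPORTS arrays lie on one side of the 3 wild type arrays, and the wild type spread is widest for Gpx3.

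Among the glutathione peroxidases, selenium enzymes that reduce peroxides with glutathione, 1 of 4 probes was higher and none lower. Over all tested probes 21.1% were called in either direction, and this class is too small for a share to be read from it. The secreted form rose and the intracellular forms did not pass. That contrast rests on 1 call, and the forms were not tested against one another. Gpx3, the extracellular enzyme, had signals of -2.78, -2.77 and -2.53 in SPORTS and -3.84, -3.14 and -3.43 in wild type. The groups did not overlap, but wild type replicate 1 lay well below the other wild type arrays. Gpx3 rose by 0.78 ± 0.18 (SE), 1.71-fold (limma adjusted p = 0.0347). The call was lost on blocking by slide row (difference 0.74, adjusted p = 0.200), when dim probes were also tested (0.0926), and without any 1 SPORTS array or wild type replicate 3 (0.0789 to 0.106).

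Gpx1, the abundant cytosolic form, was read by 10 spots on every array, whose SD within an array was 0.04 to 0.05. Its signals were 2.38, 2.37 and 2.45 in SPORTS and 2.30, 2.29 and 2.29 in wild type, so that the groups did not overlap. The difference of 0.10 ± 0.04 (interval 0.02 to 0.19) did not pass over all probes (adjusted p = 0.0992). Gpx4, which protects membranes by reducing lipid hydroperoxides, was read by 2 probes with differences of -0.09 and -0.14. On both probes all SPORTS arrays were below all wild type arrays, and neither passed (adjusted p = 0.0927 and 0.103). With a trended and robust variance model, Gpx1 was called higher (adjusted p = 0.0445) and both Gpx4 probes lower (0.0340 and 0.0381), and no other alternative called them.

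The superoxide dismutases and catalase gave 0 calls by limma. The groups of all 3 dismutases did not overlap, which also held for 41.9% of all tested probes. An unadjusted limma p under 0.05 was found for 3 of the 4 probes. The share of all tested probes under that threshold is not given, so this count cannot be set against a background. Sod1, the cytosolic copper and zinc enzyme, had signals of 4.86, 4.87 and 4.87 in SPORTS and 4.68, 4.77 and 4.82 in wild type. Its difference was 0.11 ± 0.04 (SE; adjusted p = 0.139). Sod2, the manganese enzyme of the mitochondrial matrix, had signals of 0.86, 0.78 and 0.80 in SPORTS and 0.867, 0.984 and 0.997 in wild type, with a difference of -0.14 ± 0.05 (adjusted p = 0.108). Sod3, the extracellular enzyme, differed by -0.10 ± 0.03 (adjusted p = 0.0821). Cat had overlapping groups and a difference of 0.04, with an interval from -0.07 to 0.15. Sod2 was called lower when arrays were scaled to their median (adjusted p = 0.0323), and Sod3 with the trended variance model (0.0474).

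Of the 6 peroxiredoxins and sulfiredoxin, 2 of 7 probes were lower and none higher. These calls are 28.6%, a share near the 21.1% called in either direction over all tested probes. The share of all tested probes that were lower was 10.1%. Prdx5, a peroxiredoxin of mitochondria, peroxisomes and cytosol, had signals of 3.002, 3.034 and 2.958 in SPORTS and 3.14, 3.25 and 3.27 in wild type. The groups did not overlap, and Prdx5 fell by 0.22 ± 0.05 (SE; limma adjusted p = 0.0260). Prdx1, a cytosolic peroxiredoxin that depends on thioredoxin, had signals of 0.90, 0.92 and 0.95 in SPORTS and 1.05, 1.17 and 1.07 in wild type. Prdx1 fell by 0.17 ± 0.04 (adjusted p = 0.0430). Both calls were lost on blocking by slide row (adjusted p = 0.0835 for Prdx5 and 0.256 for Prdx1), and that of Prdx1 also without any 1 array (0.0615 to 0.120) and with quantile normalisation (0.0608). Prdx5 was not called without wild type replicate 2 or 3 or any 1 SPORTS array (adjusted p up to 0.0865).

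The other peroxiredoxins had overlapping groups. Their differences were 0.06 for Prdx2, 0.02 for mitochondrial Prdx3, 0.07 for Prdx4 of the endoplasmic reticulum and 0.03 for Prdx6. Srxn1, which repairs over-oxidised peroxiredoxins and is a known NRF2 target, differed by 0.08 (interval -0.04 to 0.21).

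In the thioredoxin system Txnrd2 and 1 of the 2 probes of Txnrd1 were higher, and the mitochondrial thioredoxin was lower. Txnrd1 encodes the cytosolic reductase, and its brighter probe had signals of -1.85, -1.87 and -1.76 in SPORTS and -2.22, -2.20 and -2.19 in wild type. The wild type arrays lay close together, below all SPORTS arrays. Txnrd1 rose by 0.38 ± 0.04 (SE), 1.30-fold (limma adjusted p = 0.00292), and was still called on blocking by slide row (0.36, adjusted p = 0.0391). The dimmer probe of the gene did not pass. It had signals of -4.25, -4.16 and -4.00 in SPORTS, against -4.13, -4.11 and -4.39 in wild type, and a difference of 0.07 ± 0.10 (adjusted p = 0.659). The probes of Txnrd1 thus disagreed over all 6 arrays, while the blocked fit gave 0.25 for the dimmer one (adjusted p = 0.225).

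Txnrd2, the mitochondrial reductase, had signals of -1.70, -1.73 and -1.76 in SPORTS and -1.88, -1.86 and -1.96 in wild type. The groups did not overlap, and Txnrd2 rose by 0.17 ± 0.04 (adjusted p = 0.0352). The call of Txnrd2 was lost in 13 of 17 alternative settings, among them quantile normalisation (adjusted p = 0.0883), blocking by slide row (0.0636) and the omission of any 1 array (0.0561 to 0.105). Txn2, the mitochondrial thioredoxin that Txnrd2 reduces, had signals of 0.38, 0.34 and 0.35 in SPORTS and 0.47, 0.53 and 0.48 in wild type. Txn2 fell by 0.14 ± 0.03 (adjusted p = 0.0384), and this call was lost with the block (-0.13, adjusted p = 0.217) and without any 1 array (up to 0.125). Cytosolic Txn1, read by 10 spots, had overlapping groups and a difference of 0.01 (interval -0.13 to 0.15).

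Of 3 tested genes of glutathione synthesis and reduction, 2 were lower and none higher, where 10.1% of all tested probes were lower. The class is too small for a share to be read from it. Gclc, the catalytic subunit of glutamate-cysteine ligase and thus of the rate-limiting step, had signals of 0.59, 0.65 and 0.68 in SPORTS and 0.89, 0.92 and 0.95 in wild type. The groups were separated by more than their own ranges. Gclc fell by 0.28 ± 0.04 (SE), 1.22-fold (limma adjusted p = 0.00690). It was also called lower on blocking by slide row (-0.31, adjusted p = 0.0450). Gclm, the modifier subunit of the same ligase, was not well above background on any of the 6 arrays and was not tested.

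Gsr, glutathione reductase, had signals of -4.11, -4.06 and -3.90 in SPORTS and -3.80, -3.78 and -3.70 in wild type. It was read by 10 spots with an SD within an array of 0.09 to 0.14. Gsr fell by 0.26 ± 0.07 (adjusted p = 0.0407), and the call was lost with the block (-0.32, adjusted p = 0.115), with the trended variance model (0.0713), when dim probes were also tested (0.107), and without any 1 array except SPORTS replicate 3 (up to 0.122). Gss, which adds glycine in the last step of synthesis, differed by 0.003 with an interval from -0.15 to 0.16.

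The heme oxygenases and the quinone reductase Nqo1 gave 0 calls by limma, and 0 of these 3 probes had an unadjusted p under 0.05. Hmox1, the inducible heme oxygenase, had signals of -2.92, -3.10 and -2.99 in SPORTS and -3.22, -3.10 and -3.07 in wild type. The groups overlapped, and the difference was 0.13 ± 0.06 (SE; interval -0.03 to 0.28). Hmox2, the constitutive form, differed by -0.04 (interval -0.14 to 0.07). Nqo1 had signals of -3.10, -2.94 and -2.84 in SPORTS and -3.01, -2.92 and -2.93 in wild type. The SPORTS arrays of Nqo1 enclosed the wild type arrays, and the difference was -0.005 (interval -0.18 to 0.17).

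Wild type arrays lay in both slide rows and SPORTS arrays in row 2 alone. With the slide row in the model, 4 member probes were called of 37, 10.8%, against 7.73% of all tested probes. Gsta4, Gstt1 and Txnrd1 were higher, against 3.58% of all probes, and Gclc was lower, against 4.14%. All 4 were among the 14 called without the block. All 14 called probes kept their direction in that fit, as they had to, because their groups did not overlap. The blocked difference rests on wild type replicate 3 alone among the wild type arrays, and differences within row 2 equal it. Row 2 alone holds 1 wild type array, which a fit has to assume to vary like the SPORTS arrays. Its differences were 0.52 for Gsta4, 0.74 for Mgst1, 0.31 for Gstt1, 0.36 for the brighter Txnrd1 probe and -0.31 for Gclc. Calls within row 2 rest on that assumption and are not counted here.

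**Figure D3:**
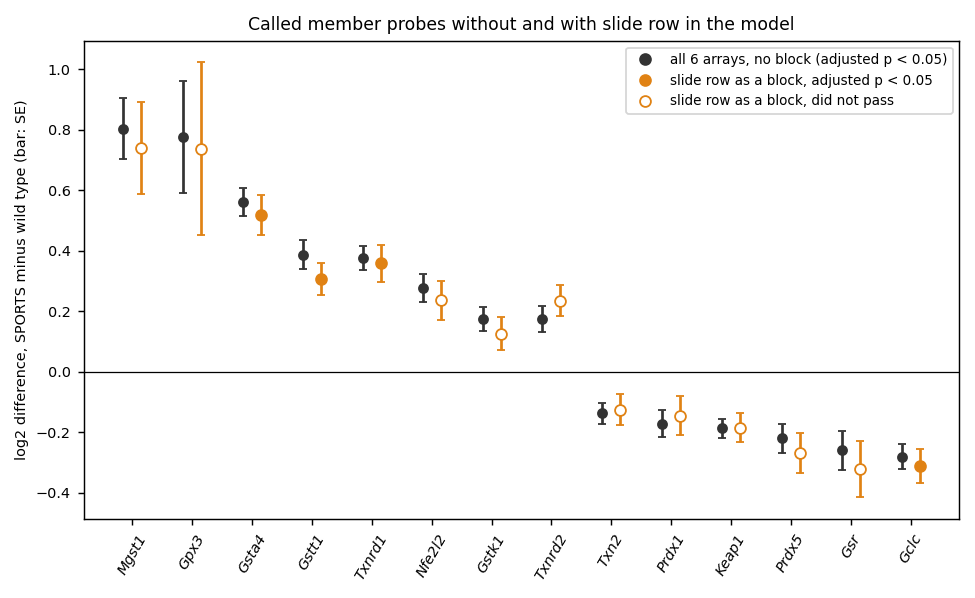
Difference in log2 signal (SPORTS minus wild type, vertical axis) of the 14 called member probes, fitted over all 6 arrays without a block (dark points) and with blocking by slide row (orange points, filled where adjusted p was under 0.05). Bars are SE. All 14 differences kept their sign, which groups that do not overlap fix in advance. Gsta4, Gstt1, Txnrd1 and Gclc were called in both fits.

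Other genes of the pathway were taken from 7 lists, with 93 of 124 genes tested. Of these, 10 were higher and 13 lower in SPORTS, 24.7% in all, against 24.3% of all genes by the same rule. Their median difference was 0.03. Among other glutathione transferases and peroxidases, 1 of 15 was higher and 2 were lower. Gpx2, a peroxidase best known from gut epithelium, had signals of -4.88, -5.38 and -4.38 in SPORTS and -3.33, -2.98 and -3.17 in wild type. Its groups lay far apart, and Gpx2 fell by 1.72 ± 0.25 (SE), 3.30-fold (limma adjusted p = 0.00786). The dimmer probe of Gpx2 was not well above background on any SPORTS array and was at least 2.78-fold lower in SPORTS (adjusted p = 0.0302). In the blocked fit the brighter probe differed by -1.71 (adjusted p = 0.0738). Gstt2, which lies close to Gstt1 in the RefSeq gene order, rose by 0.32 ± 0.05, and Gstm5 fell by 0.28 ± 0.06. The blocked fit gave adjusted p = 0.0783 for Gstt2 and 0.172 for Gstm5.

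Of 16 NRF2 partners and targets, 1 was higher and 3 were lower. Nqo2, a quinone reductase related to Nqo1 that uses dihydronicotinamide riboside instead of NADPH, had signals of -3.075, -2.909 and -2.995 in SPORTS and -1.97, -1.94 and -1.95 in wild type. The wild type arrays lay close together, and Nqo2 fell by 1.04 ± 0.05, 2.06-fold (adjusted p = 0.000228). It was called in all 17 alternatives, with adjusted p = 0.00536 in the blocked fit. Cbr1, a carbonyl reductase, fell by 0.22 ± 0.06, and Aldh3a2, a fatty aldehyde dehydrogenase, rose by 0.21 ± 0.04. The second probe of Aldh3a2 differed by 0.10 (adjusted p = 0.365). With the block, the adjusted p was 0.228 for Cbr1 and 0.122 for Aldh3a2.

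Of 17 genes of cysteine supply and glutathione turnover, 4 were higher and 2 lower. Anpep, an aminopeptidase that cleaves the cysteinylglycine left when glutathione is broken down, rose by 0.48 ± 0.08. Cbs and Cth, the enzymes that make cysteine from homocysteine, moved apart: Cbs fell by 0.32 ± 0.05 and Cth rose by 0.26 ± 0.05. In the blocked fit Anpep was called (0.65, adjusted p = 0.0123), whereas Cbs and Cth were not (adjusted p = 0.101 and 0.125). Of 16 glutaredoxin, thioredoxin-related and sulfoxide reductase genes, 1 was higher and 3 were lower. Txnip, the thioredoxin-interacting protein that restrains thioredoxin, rose by 0.36 ± 0.06, while Msra, a methionine sulfoxide reductase, and Oxr1 fell by 0.22 ± 0.04 and 0.19 ± 0.03. None of these 3 was called with the block (adjusted p = 0.0983, 0.0737 and 0.0874).

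Of 9 genes of NADPH supply, Nnt, the mitochondrial transhydrogenase, rose by 0.16 ± 0.04 and Idh1, the cytosolic isocitrate dehydrogenase, fell by 0.24 ± 0.05. Both missed the threshold with the block (adjusted p = 0.125 and 0.171). Of 12 genes of selenoprotein synthesis and selenium transport, 1 was lower and none higher. That gene was Selenow, a small selenoprotein abundant in brain and muscle, with signals of 2.21, 2.21 and 2.17 in SPORTS and 2.71, 2.56 and 2.59 in wild type. It fell by 0.42 ± 0.05 (adjusted p = 0.00350) and was called with the block (adjusted p = 0.0448). Of 8 superoxide-producing oxidase genes, 2 were higher and 1 was lower. Duox2, a dual oxidase that releases hydrogen peroxide, had signals of -3.27, -3.22 and -3.82 in SPORTS and -5.51, -5.20 and -5.29 in wild type. Duox2 rose by 1.90 ± 0.18, 3.73-fold (adjusted p = 0.00195; 0.0284 with the block). Nox1, an NADPH oxidase, fell by 0.44 ± 0.07, and Aox1, aldehyde oxidase, rose by 0.25 ± 0.05, with adjusted p = 0.0850 and 0.113 in the blocked fit. Of the 18 pathway genes named here, Gstm5, Cth, Msra, Aldh3a2, Cbr1, Idh1, Nnt and Aox1 lost their call without at least 1 array (adjusted p up to 0.108). All 8 did so without SPORTS replicate 2, 4 without SPORTS replicate 1, 6 without SPORTS replicate 3, 4 without wild type replicate 1, 3 without wild type replicate 2 and 6 without wild type replicate 3.

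**Figure D4:**
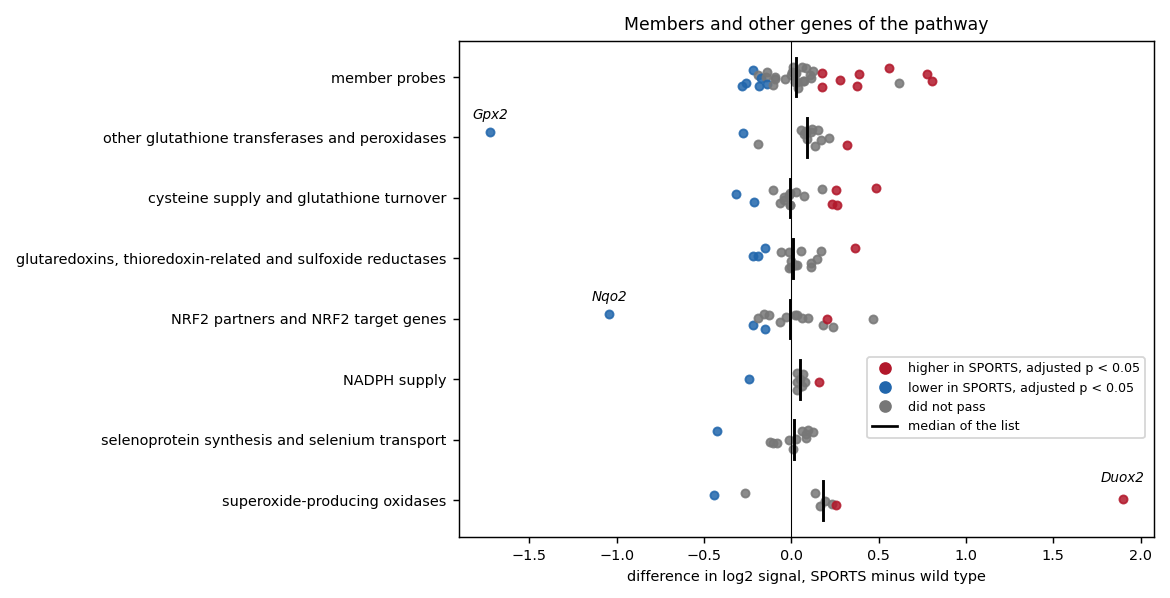
Difference in log2 signal (SPORTS minus wild type, horizontal axis) of the 37 tested member probes and of the 93 tested genes of 7 other pathway lists, 1 list per line. Points are probes or genes, red where higher and blue where lower at adjusted p under 0.05, and black bars are list medians; Duox2, Gpx2 and Nqo2 stand far from the rest.

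Markers of other cell types differed between the groups to different degrees. With each gene represented by its brightest probe, 12.9% of all genes were higher and 11.4% lower in SPORTS. Of 9 tested markers of meningeal fibroblasts, 7 were higher and 1 was lower in SPORTS, with a median difference of 0.71. Blocking by slide row left 6 higher and 1 lower. Their summed linear signal was 16.6 to 19.4 in SPORTS and 10.6 to 12.8 in wild type, and all 9 were above background on at least 2 arrays of each group. Mgst1 and Gpx3, with differences of 0.80 and 0.78, moved in the same direction, and the part of these cells in their rise was not tested. Of 9 astrocyte markers, 3 were higher and none lower, with sums of 169 to 176 in SPORTS and 151 to 166 in wild type. None of the 3, Aldh1l1, Aqp4 and S100b, was called in the blocked fit (adjusted p = 0.0552, 0.0539 and 0.0622). Of 7 erythroid markers, 3 were higher, with sums of 85.5 to 149 in SPORTS and 98.5 to 123 in wild type that overlapped, and 2 were higher in the blocked fit. Of 11 oligodendrocyte markers, 2 were higher and none lower, and of 10 microglia markers, 2 were lower and none higher. Endothelial and mural markers were higher in 2 of 10 and lower in 1. In the blocked fit, 1 microglia marker and 1 endothelial and mural marker were lower, and no oligodendrocyte marker was called. The striatal projection neuron markers were lower in 9 of 9, with sums of 9.87 to 11.2 in SPORTS and 30.5 to 35.8 in wild type, and 9 were lower in the blocked fit too. Their part in the falls of Gclc, Prdx5, Txn2 and the other members was not tested either.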

How the data were processed

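Brain RNA of 6 rats was measured on 1 Cy3 array each. Per the file headers, the authors' intensity values are background-subtracted and detrended signals written by Agilent Feature Extraction (10.10.1.1). The deposited whole-series table holds the same intensity values times 1 factor per array (1.38 to 1.47). That factor drops out on scaling, so the alternative that used this table repeats the main fit. The deposited spot flags (0 or 1) for background, saturation and outliers were used. Of 62976 spots, 58717 were non-control, with 30367 probes. Outlier spots (3075 values) were left out, spots were averaged on the log2 scale, and the 75th percentile of each array (1530 to 1628) was subtracted. Probes with more than 0.5 of spots well above background on all arrays of 1 group were tested (20659). Probes were named through RefSeq accessions (13090 tested probes, 11033 genes). Each gene outside the members was represented by its brightest tested probe.

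Groups were compared with limma 3.58.1 in R 4.3.3 (moderated test, two-sided, Benjamini-Hochberg over all tested probes, threshold 0.05). A bound on a fold compares the bright group with the higher of the dim probe and the lowest signal well above background on each array. The procedure was run on simulated independent values with known changes and no slide row effect, so that check does not bear on the slide row. Alternatives were quantile and median scaling, normexp (offset 50, on median spot brightness), the deposited table, other filters and variance models, outlier spots kept, the slide row, omission of each array, and, chosen after seeing the data, the percentile over averaged probes. Members, lists and tests were chosen with earlier results of these data known. Members with a called probe were described by array, with the called genes of largest absolute difference, up to 3, of each other pathway list. The number of arrays limits the precision.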

Additional observations from a re-analysis of the deposited data

How the results depend on the processing

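All 14 called member probes kept their direction in every one of the 17 alternatives run. Their groups did not overlap, so leaving out arrays, the slide row block and row 2 alone could not reverse a direction. The dimmer Txnrd1 probe, which was not called, differed by -0.015 with normexp and by -0.016 to 0.131 when 1 array was left out, lowest without wild type replicate 3. Counts are given as higher and lower in SPORTS. For member probes, against 8 and 6, they were 5 and 2 without the filter on dim probes, 3 and 1 when blocked by slide row, and 2 and 0 within slide row 2, with 1 wild type array (limma; 5 were lower at an unadjusted p under 0.05). Leaving out 1 array gave 5 to 6 and 1 to 3, fewest without SPORTS replicate 2 (6 probes in all). For all tested probes, against 2284 and 2081, the counts were 1234 and 1108 without the filter, 740 and 856 with the block, and 598 and 621 within row 2. Leaving out 1 array gave 1356 to 1787 and 1123 to 1558. For pathway genes, against 10 and 13, they were 4 and 7 without the filter and 3 and 2 with the block. Leaving out 1 array gave 4 to 8 and 7 to 8. With the median of each array, 6 pathway genes were higher. That scaling made 41.6% of all calls higher in SPORTS, against 52.3%. No paired analysis was possible because the replicate numbers follow accession order and pair no rats. Dim probes such as Gclm give no usable difference.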
